A study of Mus musculus with 6 samples.

Results

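The signals by which osteoblast-lineage cells control osteoclasts, and their receptors for bone-acting hormones, were followed in cultured calvarial preosteoblasts with and without a Cre transgene meant to delete *Nell2*. The set was fixed by gene symbol, with no measured value used in the choice. It held 10 genes of the 17001 rows in the deposited table, 4 of them coupling factors (*Tnfsf11*, *Tnfrsf11b*, *Csf1* and *Il34*) and 6 of them hormone receptors (*Pth1r*, *Vdr*, *Esr1*, *Nr3c1*, *Ghr* and *Lepr*). All 10 symbols were found, each in 1 row. RNA was sequenced from 3 control libraries (genotype NELL2 fx/fx) and 3 cKO libraries (genotype Col1-cre; NELL2 fx/fx). Both groups carried the floxed *Nell2* alleles, and they differed by a Cre transgene driven by a fragment of the mouse *Col1a1* promoter, which is active in the osteoblast lineage. All cells were released by enzyme digestion of skull caps taken at 3 days of age and grown in plain medium with serum. The labels do not say whether replicates came from separate pups or litters, so the tests measure only the spread between these libraries, which may be technical. A group with Cre and no floxed allele was not analysed here.

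Osteoclasts form from macrophage-lineage precursors that need a pair of signals from neighbouring stromal cells and osteoblasts. One is RANKL, encoded by *Tnfsf11*, which binds the receptor RANK (*Tnfrsf11a*) on the precursor and is intercepted by the secreted decoy receptor osteoprotegerin (OPG, *Tnfrsf11b*). The other is the stimulation of the receptor encoded by *Csf1r*, for which *Csf1* and *Il34* encode the ligands. Parathyroid hormone, the active form of vitamin D and glucocorticoids act on osteoblast-lineage cells through *Pth1r*, *Vdr* and *Nr3c1*, and are known to shift the balance of RANKL and OPG there. Estrogen (*Esr1*), growth hormone (*Ghr*) and leptin (*Lepr*) also have receptors in this lineage.

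The deposited values are FPKM, in which the fragments assigned to a gene are divided by its length and by the size of the library, so levels of different genes can be set side by side. Depth is not recoverable from them beyond rough ratios, and no counting error can be given. Values of single libraries are listed below in the order of replicates 1, 2 and 3. Differences were tested on log2(FPKM + 1) with limma over the 11590 rows that reached 1 FPKM in 3 or more libraries, a filter that 9 of the 10 genes passed and *Esr1* did not. Of the tested genes, 0 had an adjusted p under 0.05 (0% called), and 1521 had an unadjusted p under 0.05 (13.1%). Of these, the cKO libraries were higher in 622 (5.37% of tested genes) and lower in 899 (7.76%). The study, with its own normalization and test, reported differentially expressed genes in both directions between these groups. The study reported loss of *Nell2* in calvarial preosteoblasts of this genotype by quantitative PCR and western blotting. In FPKM, which covers the whole gene, the targeted gene *Nell2* showed no lower level under the cKO label. The cause of that difference was not tested. Control libraries held 3.17, 2.59 and 1.88 FPKM and cKO libraries 5.64, 1.61 and 5.74, so every direction below is that of the libraries as labelled. *Nell2* overlaps *Tmem117* on the opposite strand and *1700129L04Rik* on its own strand, whose reads could have entered its value. Omitting 1 library changed the fit more than omitting any other, since 324 genes had an adjusted p under 0.05 without cKO replicate 1, against 0 to 2 when any other library was left out. Among lineage markers, the osteoblast genes *Sp7* and *Alpl* encode a transcription factor and the phosphatase of mineralization. Their mean FPKM were 15.9 and 31.6 in control and 11.1 and 22.6 in cKO libraries. For both, every cKO library was below every control library, as in 11.8% of all tested genes. The largest difference among the osteoblast markers was that of *Ibsp*, the bone sialoprotein gene. It held 123.86, 61.9 and 48.79 FPKM in control and 34.64, 26.17 and 27.65 in cKO libraries. Of 9 tested osteoblast markers, 7 had a negative log2 fold change and 2 a positive one, *Spp1* (0.12) and *Col1a2* (0.04). The 6 epithelial markers summed to 0.46 to 13.4 FPKM in control and 18.2 to 42.7 in cKO libraries. The 3 of them tested were all higher at an unadjusted p under 0.05 in limma, against 5.37% of all tested genes. That count was partly set by the filter, which *Epcam* passed only through the cKO libraries. It held 0, 0.15 and 0.47 FPKM in control and 1.37, 1.58 and 1.21 in cKO libraries. *Krt18* had the largest difference, at 0.23, 1.41 and 6.24 FPKM in control and 21.91, 17 and 8.1 in cKO libraries. *Krt8* overlapped between the groups, with 5.81 FPKM in control replicate 3 and 5.74 in cKO replicate 3.

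The coupling factors and receptors spanned a wide range of levels. *Csf1* was the most abundant, with a mean over the 6 libraries of 124 FPKM, above 96.1% of all rows, and *Pth1r* followed at 61.9, above 92.2%. *Ghr* (20.2), *Tnfrsf11b* (14.3), *Nr3c1* (12.0) and *Tnfsf11* (10.3) came next, then *Il34* (4.99), *Vdr* (3.75) and *Lepr* (3.30). *Esr1* was by far the lowest at 0.19 FPKM, above 21% of rows. The ranges over the 6 libraries did not overlap between *Csf1* and *Pth1r*, *Pth1r* and *Ghr*, *Tnfsf11* and *Il34*, or *Lepr* and *Esr1*. In contrast, *Tnfrsf11b* exceeded *Nr3c1* in only 3 of 6 libraries, *Nr3c1* exceeded *Tnfsf11* in 4, and *Vdr* exceeded *Lepr* in 4, so those neighbours did not differ beyond their spread. The ranges of *Ghr* and *Tnfrsf11b*, and of *Il34* and *Vdr*, also overlapped, although the first of each pair was the higher in 6 of 6 libraries.

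**Figure D1:**
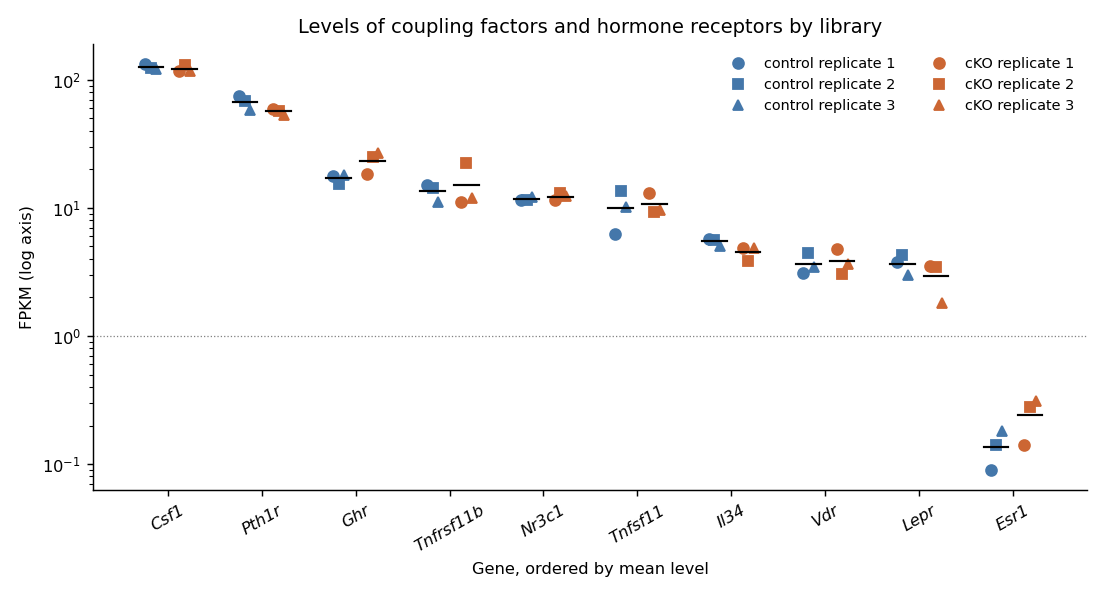
FPKM (log axis) of each gene in the 3 control (blue) and 3 cKO (orange) libraries, with marker shape giving the replicate, black bars the group means and the dotted line an FPKM of 1. The order from *Csf1* at 124 to *Esr1* at 0.19 FPKM spans most of the axis, while within a gene the groups overlap except for *Il34* and *Ghr*.

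*Tnfsf11*, the RANKL gene, lies at chr14:78277445-78308043 on the minus strand of GRCm38, with 1 protein-coding transcript in GENCODE M21. Control libraries held 6.21, 13.61 and 10.08 FPKM and cKO libraries 13.12, 9.21 and 9.63. The lowest and the highest library were thus both controls, and the cKO range lay inside the control range. The means were 9.97 ± 3.70 (SD, n = 3) and 10.7 ± 2.15 (SD, n = 3), with a log2 fold change of 0.13 ± 0.26 (SE), for which limma gave an adjusted p of 0.841. The 95% interval of the difference, -0.48 to 0.74 on the log2(FPKM + 1) scale, allows a level from 0.717-fold to 1.67-fold that of controls, so a moderate change in either direction was not detectable in these libraries. *Tnfsf11* was among the least repeatable genes, with a within-group SD larger than that of 97.1% of tested genes.

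*Tnfrsf11b*, the OPG gene, lies at chr15:54250619-54278484 on the minus strand and also has 1 protein-coding transcript. Controls stood at 15.17, 14.23 and 11.17 FPKM, against 11.19, 22.27 and 11.99 in cKO libraries. The spread among cKO libraries came from replicate 2, which was the highest of all 6, while replicates 1 and 3 lay within the control range. The means were 13.5 ± 2.09 (SD, n = 3) and 15.2 ± 6.18 (SD, n = 3), a log2 fold change of 0.10 ± 0.25 (SE, 95% interval -0.50 to 0.70), for which limma gave an adjusted p of 0.885. Its within-group SD exceeded that of 96.8% of tested genes.

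RANKL and OPG act as a pair, so their ratio was taken in each library. The FPKM ratio of *Tnfsf11* to *Tnfrsf11b* was 0.409, 0.956 and 0.902 in controls against 1.17, 0.414 and 0.803 in cKO libraries. Each group held 1 library near 0.41, and cKO replicate 1 was the only library in which RANKL transcripts exceeded OPG transcripts. The 2 low ratios arose differently, with control replicate 1 holding the lowest *Tnfsf11* and cKO replicate 2 the highest *Tnfrsf11b*. The mean ratio was 0.756 ± 0.301 (SD, n = 3) in control and 0.796 ± 0.380 (SD, n = 3) in cKO libraries. On the log2 scale with a pseudocount of 1 the groups differed by 0.03 (two-sided exact permutation test, p = 1, where 3 against 3 libraries cannot give less than 0.1). Without control replicate 1 the difference was -0.32, without cKO replicate 1 it was -0.29, and without cKO replicate 2 it was 0.41, so single libraries set both its sign and its size.

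**Figure D2:**
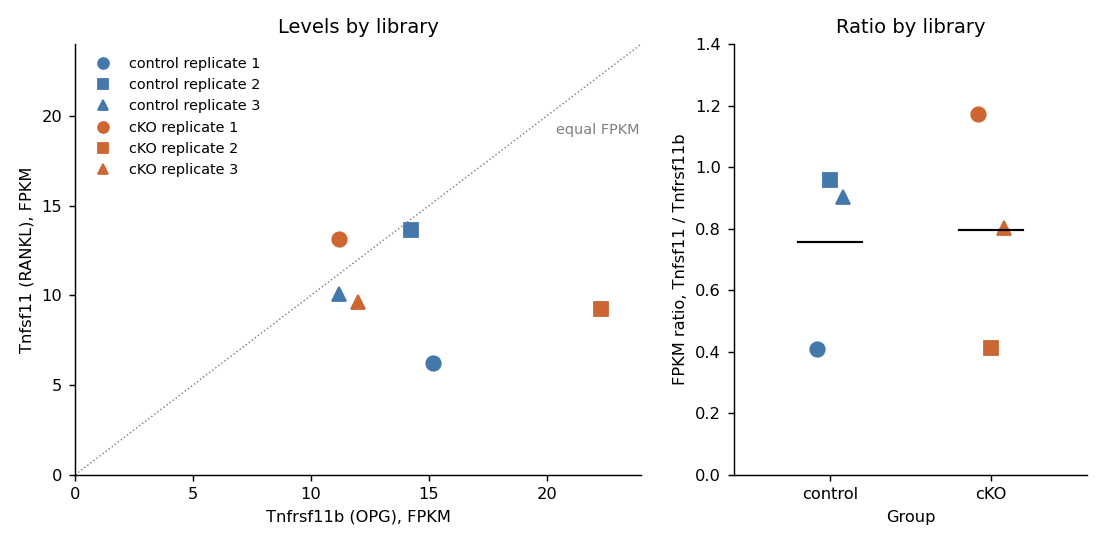
Left, FPKM of *Tnfsf11* against *Tnfrsf11b* in each library, with a dotted line of equal levels. Right, their ratio by group with the mean as a black bar: control replicate 1 (0.409) and cKO replicate 2 (0.414) lie apart from the other 4 libraries, 1 in each group.

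The study also measured both transcripts by quantitative PCR, and reported a lower ratio of RANKL to OPG in cKO preosteoblasts. The FPKM ratios above did not show that decrease, and the cause of the difference was not tested. On the log2 scale the ratio had an SD of 0.62 in control and 0.71 in cKO libraries (n = 3 each). A moderate decrease was therefore not detectable in these libraries. Whether the PCR used the same RNA is not given in the sources used here. The primers show which part of each gene the PCR assay reads, whereas FPKM covers the whole gene. They are given here 5′ to 3′ as the study lists them, with positions on GRCm38 from their match to GENCODE M21 transcripts.
*Tnfsf11* forward: gtgaagacacactacctgactcc
*Tnfsf11* reverse: gccacatccaaccatgagcctt
*Tnfrsf11b* forward: cggaaacagagaagccacgcaa
*Tnfrsf11b* reverse: ctgtccaccaaaacactcagcc
The *Tnfsf11* pair lies in exon 2 (chr14:78299880-78299902) and exon 4 (chr14:78284307-78284328) of 5, and frames 142 bases of the 2236-base transcript. The *Tnfrsf11b* pair lies in exon 3 (chr15:54255998-54256019) and exon 4 (chr15:54254181-54254202) of 5, and frames 120 bases of 2818. All primer bases fall in coding sequence, none spans an exon junction (no base is therefore in capitals), and each pair matched transcripts of its own gene alone.

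*Csf1*, which encodes macrophage colony-stimulating factor, lies at chr3:107741048-107760469 on the minus strand with 6 protein-coding transcripts. It is known to give membrane-bound and secreted forms, which a gene-level FPKM does not separate. Its level was nearly the same in every library, at 132.25, 124.71 and 122.14 FPKM in controls against 117.43, 129.92 and 118.18 in cKO libraries. The means were 126 ± 5.25 (SD, n = 3) and 122 ± 7.00 (SD, n = 3), with a log2 fold change of -0.05 ± 0.07 (SE), for which limma gave an adjusted p of 0.756. The 95% interval of -0.22 to 0.11 leaves room for a change of at most 0.860-fold downwards or 1.08-fold upwards on the scale of FPKM + 1, much narrower than for RANKL or OPG.

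*Il34*, the alternative ligand of the same receptor, lies at chr8:110741829-110805924 on the minus strand and overlaps 2 antisense genes of the opposite strand, *Gm15894* and *Gm15895*. Whether the counting used strand is not given in the sources used here, so reads of these genes could have entered its value. Control libraries held 5.74, 5.59 and 5.08 FPKM and cKO libraries 4.86, 3.86 and 4.83. Every cKO library was below every control library, by a narrow margin between 5.08 and 4.86. The means were 5.47 ± 0.346 (SD, n = 3) and 4.52 ± 0.569 (SD, n = 3). The log2 fold change was -0.23 (SE 0.09, 95% interval -0.45 to -0.014), and its adjusted p of 0.365 from limma did not pass. Among all tested genes, 11.8% had every cKO library below every control library.

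*Csf1* exceeded *Il34* in FPKM by 22.3 to 24.0 times in control libraries and by 24.2 to 33.7 times in cKO libraries. The groups differed by 0.18 in log2 ratio with a pseudocount of 1 (two-sided exact permutation test, p = 0.2), and by 0.046 without cKO replicate 2, the library with the highest ratio. The receptors on the receiving side were low in these cultures. RANK (*Tnfrsf11a*) was at 0.07 to 0.13 FPKM in the 6 libraries and *Csf1r* at 0.84 to 1.31, and the leukocyte marker *Ptprc* was at 0.07 to 0.18. Other osteoclast and macrophage genes were not low, with *Lyz2* at 26.61 to 74.99 FPKM and *Acp5* at 18.02 to 26.98. Of that list, 8 genes stayed below 1 FPKM in every library. Of the 18 osteoclast and macrophage receptors and markers listed, 17 were in the table, 8 passed the filter, and the list summed to 332 to 426 FPKM in control and 345 to 395 in cKO libraries, most of it from *Ctsk* with a mean of 291 in controls. The largest differences among them were *Mmp9*, a matrix protease, with a log2 fold change of 0.61, and *Cd68*, a lysosomal protein of macrophages, with 0.33. Of the 8, 1 (*Mmp9*) was higher at an unadjusted p under 0.05 in limma, as were 5.37% of all tested genes. *Mmp9* held 0.57, 0.71 and 1.15 FPKM in control libraries and reached the filter through the cKO libraries (1.87, 1.55 and 1.83).

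*Pth1r*, the receptor of parathyroid hormone and of parathyroid hormone-related peptide, lies at chr9:110722085-110747145 on the minus strand, where it overlaps the opposite-strand gene *Myl3*, whose reads could have entered its value in the same way. It was the most abundant of the 6 receptors, at 74.49, 68.56 and 58.48 FPKM in controls against 59.37, 57.16 and 53.37 in cKO libraries. The groups met at cKO replicate 1 and control replicate 3, and the other cKO libraries were below all controls. The means were 67.2 ± 8.09 (SD, n = 3) and 56.6 ± 3.03 (SD, n = 3), a log2 fold change of -0.24 ± 0.10 (SE, 95% interval -0.47 to -0.00092), for which limma gave an adjusted p of 0.380. Of 9 tested osteoblast markers, 5 were also lower at an unadjusted p under 0.05 in limma, as were 7.76% of all tested genes. That count was partly set by the filter, which *Ifitm5* passed only through the control libraries. It held 4.08, 2.06 and 1.28 FPKM in control and 0.63, 0.64 and 0.50 in cKO libraries. The whole list of 12 summed to 17662 to 18512 FPKM in control and 18117 to 18334 in cKO libraries, mostly through its 2 collagen genes. The part of these markers in the *Pth1r* values was not tested. The ligand gene *Pthlh* was low, at 0.05 to 0.22 FPKM in control and 0.18 to 0.77 in cKO libraries.

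The set holds 3 nuclear receptors, whose groups overlapped in each case. *Nr3c1*, the glucocorticoid receptor, lies at chr18:39410545-39519421 on the minus strand and was the steadiest of the 9 tested genes, with a within-group SD larger than that of only 20.5% of tested genes. Control libraries held 11.46, 11.62 and 12.20 FPKM and cKO libraries 11.50, 12.97 and 12.29, with overlapping groups. The log2 fold change was 0.05 ± 0.07 (SE, 95% interval -0.10 to 0.21), for which limma gave an adjusted p of 0.741. The mineralocorticoid receptor *Nr3c2*, its closest relative, was at 0.10 to 0.34 FPKM.

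*Vdr*, the vitamin D receptor, lies at chr15:97854425-97910630 on the minus strand. Control libraries held 3.09, 4.47 and 3.45 FPKM and cKO libraries 4.76, 3.07 and 3.68. The groups overlapped almost completely, and the log2 fold change was 0.05 ± 0.16 (SE, 95% interval -0.32 to 0.42), for which limma gave an adjusted p of 0.915. The 2 libraries with the highest *Vdr*, cKO replicate 1 and control replicate 2, were also the 2 with the highest *Tnfsf11*, a coincidence noticed after the values were seen and not tested. *Rxra*, which encodes a dimer partner of the vitamin D receptor, was at 30.04, 30.48 and 30.21 FPKM in controls against 26.33, 26.55 and 26.65 in cKO libraries. Every cKO library was thus below every control library, as in 11.8% of all tested genes, and the libraries of each group lay close together. The log2 fold change was -0.18 (SE 0.05), with an adjusted p of 0.312 from limma that did not pass.

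*Esr1*, the estrogen receptor alpha gene, lies at chr10:4611593-5005614 on the plus strand. Control libraries held 0.09, 0.14 and 0.18 FPKM and cKO libraries 0.14, 0.28 and 0.31. All 6 values were below 1 FPKM, and the gene was not tested. The groups overlapped, and at such levels counting error of unknown size enters each value. *Esr2* and *Pgr*, the genes of estrogen receptor beta and the progesterone receptor, were as low, at 0 to 0.08 and 0 to 0.02 FPKM, whereas *Gper1*, which encodes a membrane receptor for estrogen, was at 2.80 to 5.91.

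*Ghr*, the growth hormone receptor, lies at chr15:3317760-3583492 on the minus strand and had the largest difference of the set. Control libraries held 17.83, 15.43 and 18.16 FPKM and cKO libraries 18.38, 24.77 and 26.86. Every cKO library was above every control library, but cKO replicate 1 exceeded control replicate 3 by little, and the separation rested on cKO replicates 2 and 3. The means were 17.1 ± 1.49 (SD, n = 3) and 23.3 ± 4.42 (SD, n = 3), a log2 fold change of 0.41 ± 0.14 (SE, 95% interval 0.07 to 0.75), for which limma gave an adjusted p of 0.325. Without cKO replicate 1 the log2 fold change was 0.57 and the adjusted p 0.0409 from limma, in a fit where 324 genes passed. Among all tested genes, 6.51% had every cKO library above every control library. Of 5 tested adipocyte markers, 2 (*Fabp4* and *Pparg*) were also higher at an unadjusted p under 0.05, as were 5.37% of all tested genes. All 5 had a positive log2 fold change, against 44.2% of all tested genes, with *Lpl* at 0.46 and *Pparg* at 0.35. The list of 8 summed to 36.3 to 54.2 FPKM in control and 77.9 to 122 in cKO libraries. In that list *Fabp4*, a fatty acid carrier, was at 13.91, 19.79 and 22.45 FPKM in controls against 49.33, 85.35 and 53.6 in cKO libraries, while *Adipoq* was at a mean of 0.113 and 0.207 FPKM and *Plin1* at 0.0433 and 0.0333, and their part in the *Ghr* values was not tested. In bulk RNA, a different share of a cell type and a different level per cell cannot be told apart.

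*Lepr*, the leptin receptor, which marks stromal cells of adult bone marrow, lies at chr4:101717404-101815352 on the plus strand with 4 protein-coding transcripts that a gene-level value does not separate. Control libraries held 3.78, 4.26 and 2.98 FPKM and cKO libraries 3.55, 3.43 and 1.80. A single library, cKO replicate 3, was low, and the other cKO libraries fell within the control range. The means were 3.67 ± 0.65 (SD, n = 3) and 2.93 ± 0.98 (SD, n = 3), a log2 fold change of -0.28 ± 0.20 (SE, 95% interval -0.76 to 0.20), for which limma gave an adjusted p of 0.576.

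**Figure D3:**
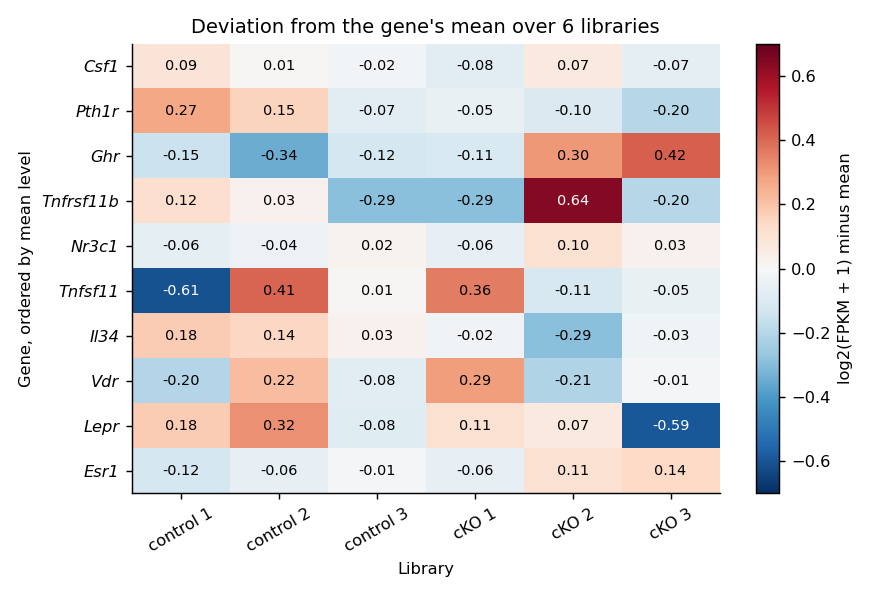
Deviation of log2(FPKM + 1) from the gene's own mean over the 6 libraries, by gene (ordered by level) and library. The largest deviations are single libraries, -0.61 for *Tnfsf11* in control replicate 1, 0.64 for *Tnfrsf11b* in cKO replicate 2 and -0.59 for *Lepr* in cKO replicate 3, rather than whole groups.

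Over the 9 tested genes, 0 passed the adjusted threshold in limma, and 3 (*Il34*, *Pth1r* and *Ghr*) had an unadjusted p under 0.05, as did 13.1% of all tested genes. The median log2 fold change of the 9 was 0.05, against -0.02 over all tested genes, with 5 values above and 4 below 0. Precision differed widely between members. The 95% intervals of *Csf1* and *Nr3c1* stayed within 0.22 of 0, while those of *Tnfsf11*, *Tnfrsf11b*, *Ghr* and *Lepr* reached 0.74, 0.70, 0.75 and -0.76. The RANKL and OPG genes had the widest within-group spread of the 9, followed by *Lepr*.

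**Figure D4:**
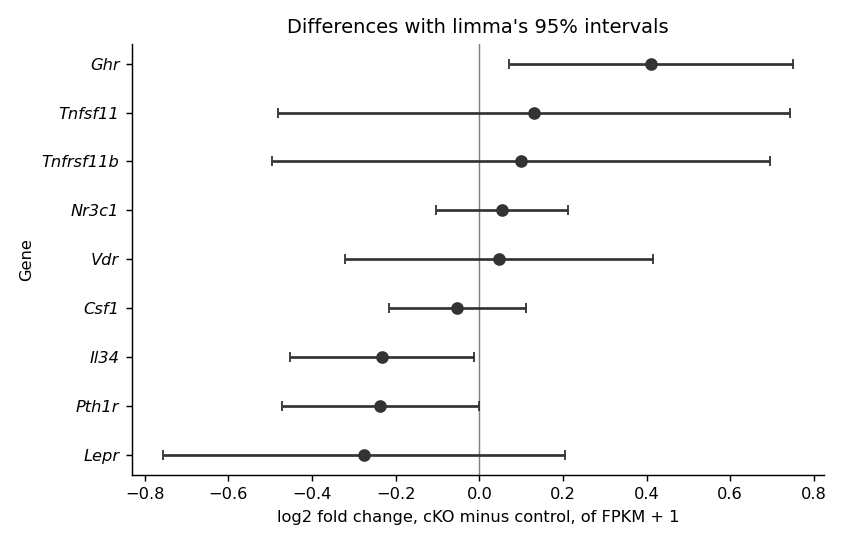
log2 fold change, cKO minus control, of FPKM + 1 for the 9 tested genes, with limma's unadjusted 95% intervals as bars. The intervals of *Ghr*, *Il34* and *Pth1r* lie to one side of 0 (that of *Pth1r* ends just below it), and 0 of the 9 passed after adjustment.

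The surrounding pathways were examined with gene lists chosen by function, and 0 of their tested genes passed the adjusted threshold in limma. Over all tested genes, 5.37% were higher and 7.76% lower at an unadjusted p under 0.05, the shares against which the counts of each list are to be read. Of 19 tested coupling signals other than the set itself, 2 were higher and 0 lower at an unadjusted p under 0.05, with a median log2 fold change of 0.05. The 2 were *Postn*, which encodes the matrix protein periostin, with means of 658 and 916 FPKM in control and cKO libraries, and *Lif*, a cytokine gene, with a log2 fold change of 0.28. *Cxcl12*, the chemokine that retains hematopoietic cells, had means of 93.8 and 114 FPKM, but its groups overlapped and it did not reach that threshold. *Lgr4*, which encodes another receptor reported to bind RANKL, was at 7.61 to 11.2 FPKM and overlapped between groups. Of 21 tested genes of PTH receptor and cAMP signaling, 0 were higher and 1 lower at an unadjusted p under 0.05, and 5 of them, *Gnas* (which encodes the stimulatory G protein subunit), *Gna11*, *Prkaca*, *Prkacb* and *Prkar2a*, had every cKO library below every control library, as did 11.8% of all tested genes, with log2 fold changes between -0.18 and -0.07. The largest differences there were 0.34 for *Nr4a2*, an early response gene, and -0.27 for *Pde4d*, a cAMP phosphodiesterase.

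Among 10 tested vitamin D pathway genes 2 were lower and 0 higher at an unadjusted p under 0.05, *Rxra* as above and *Bglap*, the osteocalcin gene, with a log2 fold change of -1.15 ± 0.35 (SE), for which limma gave an adjusted p of 0.312. The vitamin D coactivator gene *Ncoa1* followed at 0.23. Of 7 tested sex steroid genes 0 had an unadjusted p under 0.05, and *Gper1* (0.25) and the steroid dehydrogenase *Hsd17b4* (-0.21) differed most. In the glucocorticoid list 1 of 12 was higher and 0 lower at that threshold. This was the metallothionein *Mt2*, with a log2 fold change of 1.09 ± 0.31 (SE), for which limma gave an adjusted p of 0.312. *Tsc22d3*, an induced target of the receptor, was at 0.31, and *Fkbp5* and *Per1*, also classic targets, were at -0.10 and -0.01. Further genes of the list were at 0.22 (*Cebpd*), 0.11 (*Klf9*), -0.02 (*Dusp1*) and -0.05 (*Sgk1*). Of the 12, 5 were above 0 and 7 below.

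Of 17 tested genes of growth hormone and leptin signaling, 2 were higher and 2 lower at an unadjusted p under 0.05. The higher ones were the insulin receptor substrate *Irs2* (0.25) and the feedback inhibitor *Socs2* (0.36), and the lower ones were *Stat5b* (-0.17), which transmits the growth hormone signal, and the phosphatase *Ptpn11* (-0.16). *Socs3*, an inhibitor of leptin receptor signaling, was at 0.37. *Igf1*, the growth hormone target, had means of 15.2 and 15.9 FPKM in control and cKO libraries. Of 11 tested receptors for other hormones, 1 was higher at an unadjusted p under 0.05, *Calcrl*, a receptor for peptides of the calcitonin gene family, at 1.12, 1.24 and 1.49 FPKM in controls against 1.91, 2.13 and 2.08 in cKO libraries. The natriuretic peptide receptor *Npr3* had a log2 fold change of -0.16. Markers of other cell types were examined for comparison. Of 5 tested cartilage markers, 3 were higher at an unadjusted p under 0.05, *Comp* (0.65), *Acan* (0.50) and *Col9a1* (0.45), with a list median of 0.45. The groups overlapped for *Comp* and *Acan*. For *Col9a1* every cKO library was above every control library, as in 6.51% of all tested genes. The list summed to 99.2 to 168 FPKM in control and 154 to 179 in cKO libraries, most of it from the collagen gene *Col2a1*, whose groups overlapped. Of 6 tested muscle markers and 1 tested endothelial marker (*Cdh5*, -0.12) 0 had an unadjusted p under 0.05. Among the muscle markers *Des* (0.28) and *Acta1* (0.16) differed most. Muscle markers summed to 45.7 to 87.0 FPKM in control and 57.8 to 71.8 in cKO libraries, and endothelial markers to 1.89 to 3.92 and 1.92 to 3.46. The part of any of these lists in the values of the set was not tested.

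**Figure D5:**
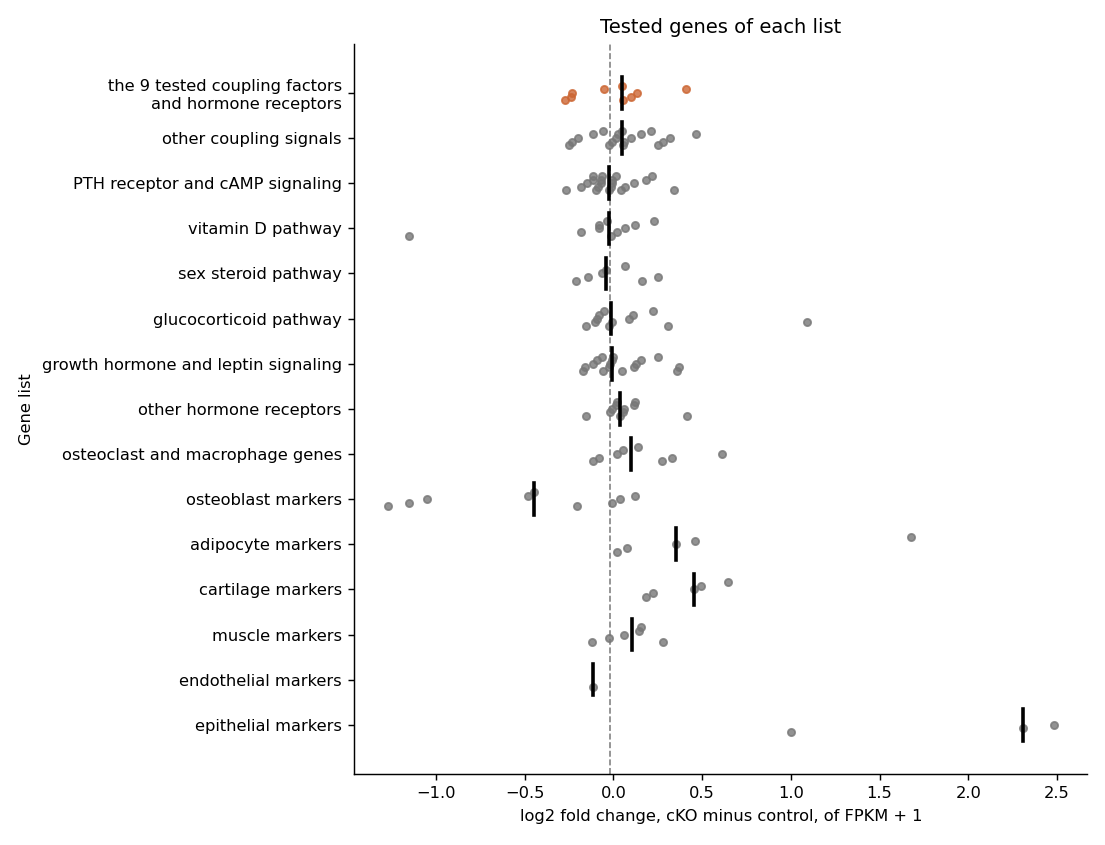
log2 fold change, cKO minus control, of FPKM + 1 for each tested gene (points) of the named lists, with the list's median as a black bar and the median of all tested genes (-0.02) as a dashed line. The coupling factors, receptors and hormone pathway lists have medians between -0.04 and 0.05 and the osteoclast and macrophage genes 0.10, while epithelial (2.31), cartilage (0.45), osteoblast (-0.45) and adipocyte markers (0.35) lie further out.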

How the data were processed

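Polyadenylated RNA of 6 libraries was read as 150 bp paired ends. Per the labels and the methods, the authors mapped reads with HISAT2 to the mouse transcriptome, with GRCm38 named in the processing notes, and normalized with DESeq. Versions, the annotation release and the program behind the values are not given in the sources used here. The authors deposited FPKM, rounded to 2 decimals, with gene symbols only, and the 6 sample columns were all used. FPKM is not a count, so no count test was run. Low values gave depths between 0.944 and 1 relative to control replicate 1, from 10 to 17 rows a library.

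Here log2(FPKM + 1) of the 11590 rows reaching 1 FPKM in 3 or more libraries was fitted with limma 3.58.1 in R 4.3.3. The fit used no variance trend, a two-sided moderated test and Benjamini-Hochberg adjustment over all tested rows, with a threshold of 0.05. It was also run on simulated data, whose outcome is not given here and is not used to read the results. Log2 fold changes on this scale understate the change of low genes. Ratios were compared with an exact permutation test over libraries. Positions are from GENCODE M21 (GRCm38), whose release may differ from the authors'. The genes named are all 10 of the set, *Nell2*, and ligands, receptors and partners of the set listed by name. Also named are the 2 tested genes with the largest difference in each pathway or marker list, or the only tested one. The following genes fall outside these rules and were added after their values were seen. In the hormone pathway lists they are *Irs2*, *Stat5b*, *Ptpn11*, *Gnas*, *Gna11*, *Prkaca*, *Prkacb*, *Prkar2a*, *Pgr*, *Igf1*, *Fkbp5*, *Per1*, *Cebpd*, *Klf9*, *Sgk1* and *Dusp1*. Among coupling signals and osteoclast and macrophage genes they are *Cthrc1*, *Lif*, *Ptprc*, *Ctsk*, *Lyz2* and *Acp5*. Among other markers they are *Epcam*, *Col9a1*, *Col2a1*, *Sp7*, *Alpl*, *Spp1*, *Col1a2*, *Ifitm5*, *Pparg*, *Adipoq* and *Plin1*. The set, lists and tests were chosen with earlier results of these data known.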

Additional observations from a re-analysis of the deposited data

How the results depend on the processing

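Fits were repeated without the filter, with 1 FPKM required in all libraries, with a pseudocount of 0.1, a variance trend, median ratio scaling, the replicate block, a covariate of Y-linked genes, and omission of each library in turn (13 alternatives). Genes passing an adjusted p of 0.05 in limma numbered 0 under the first 7 and 0 to 324 with a library left out. Of the 9 tested coupling factors and receptors 0 passed, or 0 to 1 with a library left out (*Ghr*, 0.57, adjusted p = 0.0409 without cKO replicate 1, and 0.0409 to 0.692 over all alternatives). Of the other list genes 0 passed, or 0 to 4 with a library left out, which were *Cthrc1*, *Epcam*, *Fabp4* and *Mt2* without cKO replicate 1. *Csf1*, *Il34*, *Pth1r*, *Nr3c1*, *Ghr* and *Lepr* kept their direction in all 13. With a library left out, the log2 fold change ran from -0.14 to 0.37 for *Tnfsf11*, -0.20 to 0.27 for *Tnfrsf11b* and -0.087 to 0.17 for *Vdr*, each reversed in 2 fits. The log2 ratio of *Tnfsf11* to *Tnfrsf11b* ran from -0.32 to 0.41, reversed in 3 fits. With the Y-linked covariate *Tnfrsf11b* was at 0.30 instead of 0.10 (adjusted p = 0.486 from limma). The cause was not tested. Deviations of same-numbered libraries correlated at 0.03, -0.17 and 0.21, so the numbers were not taken as pairs. The replicate block gave 0 genes, with *Ghr* at an adjusted p of 0.348, and the paired log2 ratio of *Tnfsf11* to *Tnfrsf11b* was 0.03 (exact sign-flip test, p = 1). FPKM hides depth, which limits what *Esr1* and other genes under 1 FPKM can show.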
